A study of Homo sapiens with 9 samples.

Results

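The transcripts of the mitochondrial genome were followed in A375R cells across 3 treatments. They were taken as every row of the deposited gene table whose gene name starts with MT-, which gave 37 of 62710 rows. By the biotype given in the table these are 13 protein-coding genes, 2 rRNA genes and 22 tRNA genes, and all 37 matched the GENCODE annotation of the mitochondrial chromosome by identifier and by position. A375R is a derivative of the A375 human melanoma line that resists PLX4032, a vemurafenib analogue, and it is kept in medium containing that drug, which the controls share. The DMSO group, the vehicle control, is titled WT with neither a dose nor a time, while the table's column names give 2 h for its replicates 2 and 3 and no time for replicate 1. The VHL-r group was given the VHL-binding moiety by itself, at 10 µM for 2 h. The R4VPL3-1 group received 10 µM for 2 h of the full PROTAC-like molecule, in which a VHL-binding moiety is linked to a moiety that binds the ubiquitin ligase RNF4. Each group holds 3 libraries that the study describes as biological repeats. The comparison of R4VPL3-1 with VHL-r, at matched dose and time, asks what the full molecule does beyond its VHL-binding part. A375R is 1 resistant line, so values describe this line only.

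Human mitochondrial DNA is a small circle whose strands are each transcribed as long precursors. Most mRNAs and rRNAs are flanked by tRNAs, which are cut out by RNase P at the 5′ side and by ELAC2 at the 3′ side, releasing the RNAs between them. Most mRNAs and the rRNAs are then given short poly(A) tails by the polymerase MTPAP, whereas the MT-ND6 mRNA is known to lack a regular tail. The mRNAs encode core subunits of complexes I, III and IV of the respiratory chain and of ATP synthase (complex V), whose other subunits are encoded in the nucleus. The genes have no introns.

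How these genes sit beside each other decides which of them can be read in this table. The counting tool does not assign a read that touches more than 1 gene on the same strand, and the reads were 100 bases long. For each gene the start positions from which a 100-base read would touch that gene and no other were counted on the hg38 mitochondrial sequence of 16569 bases. Of the 22 tRNA genes, 9 had no such position, and in MT-TN all 6 positions gave reads that also occur in the nuclear genome. All 9 tRNA genes listed at 0 in every library were among these 10. The remaining one, MT-TL1, had a single read in 1 library. An example is the run of MT-TH, MT-TS2 and MT-TL2, shown because no 100-base read can lie in 1 of its genes without touching a neighbour; MT-TS2, the tRNA for serine (AGY codons), is in capitals (chrM:12138-12336, plus strand):
MT-TH, MT-TS2 and MT-TL2: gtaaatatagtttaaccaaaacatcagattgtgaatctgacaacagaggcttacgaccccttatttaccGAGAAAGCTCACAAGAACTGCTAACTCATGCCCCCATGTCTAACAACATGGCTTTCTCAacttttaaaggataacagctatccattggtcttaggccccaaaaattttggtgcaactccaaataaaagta
MT-TT, the gene of the tRNA for threonine, is the opposite case and is shown because its row is the only tRNA row that passed the test below. It is the last gene on its strand, so a read counted for it started inside MT-TT, downstream of the end of MT-CYB, and ran on past the tRNA. The stretch such reads cover has MT-TT in capitals (chrM:15888-16052, plus strand):
MT-TT and downstream: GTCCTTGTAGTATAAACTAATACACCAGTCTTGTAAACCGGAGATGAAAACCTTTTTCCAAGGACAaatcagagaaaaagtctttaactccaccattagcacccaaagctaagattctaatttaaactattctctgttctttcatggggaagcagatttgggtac
A mature tRNA is shorter than a full-length read, so a full-length read counted for a tRNA row comes from a longer RNA that holds the tRNA sequence and runs into its surroundings.

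Libraries held between 26435568 and 32085626 reads on genes, with a median of 28165279, and the MT- rows took 2.14 to 2.59% of them. Messenger RNA was selected by poly(A), so an RNA with a short tail or none is under-represented. Of 8 melanocyte lineage markers, 6 passed the filter on low values. They included SOX10, at a mean normalized count of 17550 in DMSO, 10200 in VHL-r and 8405 in R4VPL3-1, while the pigmentation gene MLANA was listed at 0 in every library and TYR was at most 2.14. The 8 summed to 22877 to 24657 in DMSO, 13656 to 17016 in VHL-r and 12182 to 14590 in R4VPL3-1. Markers of other cell types (6 genes) summed to 439 to 501 in DMSO, 398 to 493 in VHL-r and 350 to 408 in R4VPL3-1. Of these, the immune marker PTPRC, the epithelial EPCAM and the endothelial PECAM1 had group means between 1.98 and 7.44. The keratin gene KRT14 made up most of the sum, with group means of 346.8 in DMSO, 286.6 in VHL-r and 250.7 in R4VPL3-1. It was called lower in R4VPL3-1 than in DMSO (limma adjusted p = 0.00104). DCN had 92.35, 121.0 and 94.73 in the same order, and KRT5 had 17.38, 18.15 and 16.52. Of the 6 tested melanocyte markers, only SOX10 was called lower in R4VPL3-1 than in VHL-r (log2 fold change -0.28, limma adjusted p = 0.00951). None of them was called higher. Of 5 markers of dedifferentiated melanoma, all tested, 1 was called higher than in VHL-r and none lower. Their sum was 13729 to 16095 in DMSO, 11831 to 13070.0 in VHL-r and 22945 to 34971 in R4VPL3-1. The gene that rose was JUN, a transcription factor of the immediate early response, with group means of 1989 in DMSO, 1163 in VHL-r and 18380.0 in R4VPL3-1 (log2 fold change against VHL-r 3.93, limma adjusted p = 1.14e-13), while AXL and NGFR had values of 0.00 and -0.19. Against DMSO, JUN (3.16) and EGFR (0.31) were called higher and AXL (-0.17) and NGFR (-0.31) lower, and SOX9 was not called. In that comparison 13.1% of all tested genes were called higher and 11.8% lower. The higher sum in R4VPL3-1 therefore does not describe the 5 markers alike. The part of these markers in the results on mitochondrial RNA was not tested.

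After 2 h of R4VPL3-1, 4 of the 13 mitochondrial protein-coding genes had higher counts than after VHL-r, by 1.15- to 1.23-fold. The threonine tRNA row was lower. The 4 were 2 of the 7 genes of complex I, the 1 of complex III and 1 of the 2 of complex V. The 2 called genes of complex I share 1 mRNA, as do both genes of complex V, so the rows are not independent. Of the 21 MT- rows with a mean of at least 10 normalized counts, 4 rose against VHL-r (MT-ATP8, MT-ND4L, MT-ND4 and MT-CYB) and 1 fell (MT-TT), where a call is an adjusted p of at most 0.05 by limma over 15230 genes. Over all tested genes 1.14% were called higher and 0.729% lower in this comparison. With DESeq2 on whole reads recovered from the table, 8 rows were called higher, where 1.4% of 13671 genes were. The median log2 fold change of the 21 rows by limma was 0.16, beside -0.01 for all tested genes. That of the 13 protein-coding genes was 0.17. The test covers this comparison only as the spread between the 3 labelled repeats of each group, and in bulk RNA a change in RNA per cell cannot be told apart from a change in which cells were left.

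Against DMSO, 7 of the 21 rows rose after R4VPL3-1 (MT-ND1, MT-ND2, MT-ATP8, MT-ATP6, MT-ND4L, MT-ND4 and MT-CYB) and 2 fell (MT-CO1 and MT-TT), beside 13.1% of all tested genes called higher and 11.8% called lower. The share of rows that rose was thus above that background, and the share that fell, 2 of 21, was close to it. MT-ATP8 and MT-ATP6 share an mRNA, as do MT-ND4L and MT-ND4, so the 7 rows are not independent. Whether their share exceeds the background was not tested. The median was 0.09, beside -0.01 for all tested genes. For VHL-r against DMSO no MT- row was called in either direction, while 10.3% of tested genes were called higher and 9.51% lower. None of the 21 had an unadjusted p under 0.05 there by limma, and edgeR and DESeq2 also called 0. The 13 protein-coding genes lay between -0.21 and 0.02 on the log2 scale in that comparison, and their median was -0.01. The 3 comparisons share libraries in pairs, so they are given side by side and are not independent of each other.

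**Figure D1:**
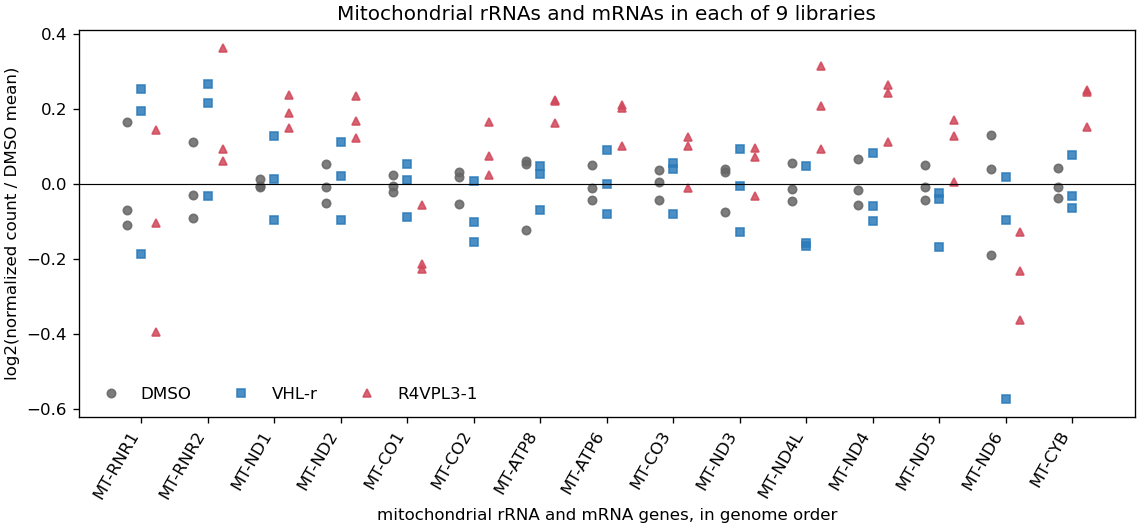
Normalized count of the 2 rRNA and 13 protein-coding genes in each of 9 libraries, as the log2 ratio to the mean of the 3 DMSO libraries. Genes are in their order on the mitochondrial genome, with 1 point per library. The 3 R4VPL3-1 libraries lie above all DMSO and VHL-r libraries for MT-ND1, MT-ND2, MT-ATP8, MT-ATP6, MT-ND4L, MT-ND4 and MT-CYB. They lie below all DMSO libraries for MT-CO1. How many of all tested genes separate in this way was not counted.

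Of the 7 genes of complex I, the NADH dehydrogenase, MT-ND4L and MT-ND4 were called higher against both VHL-r and DMSO. These lie together on 1 bicistronic mRNA (chrM:10470-10766 and chrM:10760-12137, plus strand). MT-ND4L had 11178, 12009 and 11441 normalized counts in DMSO replicates 1 to 3, 10292, 11924 and 10354 in VHL-r, and 13323, 12324 and 14354 in R4VPL3-1. Each R4VPL3-1 library was above every library of the other groups. The share of all tested genes separated in this way was not counted, so such separation is given here and below as description only. The log2 fold change was 0.30 against VHL-r (SE 0.0576, limma adjusted p = 0.00448) and 0.21 against DMSO (adjusted p = 0.0113). The call against VHL-r held in all 9 fits that left out 1 library, and the call against DMSO was lost without R4VPL3-1 replicate 3 (adjusted p = 0.0637).

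MT-ND4 had 86515, 88946 and 94245 normalized counts in DMSO, 86297, 95286 and 84019 in VHL-r, and 106294, 97228 and 107987 in R4VPL3-1. Its groups did not overlap either, although R4VPL3-1 replicate 2 lay only a little above VHL-r replicate 2. The log2 fold change was 0.23 against VHL-r (SE 0.0526, limma adjusted p = 0.0202) and 0.21 against DMSO (adjusted p = 0.00572). Against VHL-r it was lost without VHL-r replicate 1 (adjusted p = 0.087), VHL-r replicate 3 (0.131), R4VPL3-1 replicate 1 (0.105) or R4VPL3-1 replicate 3 (0.0726). The ratio of MT-ND4L to MT-ND4 counts was 0.119 to 0.135 in all 9 libraries. R4VPL3-1 (0.1253 to 0.1329) overlapped DMSO and lay just above VHL-r (0.1193 to 0.1251). This ratio is given without a test.

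MT-ND1 and MT-ND2, which encode membrane-arm subunits of complex I, also lay above both other groups in every R4VPL3-1 library, and passed the test against DMSO only. MT-ND1 had 29251, 28816 and 28880.4 normalized counts in DMSO, 29251, 31681 and 27142 in VHL-r, and 33037, 32117 and 34191 in R4VPL3-1. Its log2 fold change against DMSO was 0.19 (SE 0.0481, limma adjusted p = 0.00517), and against VHL-r the value was 0.18 with an adjusted p of 0.07. MT-ND2 ranged from 47280.0 to 54618 in the 6 libraries of DMSO and VHL-r and from 55061 to 59516 in R4VPL3-1. That is a log2 fold change of 0.18 against DMSO (limma adjusted p = 0.0123), which was lost without DMSO replicate 1 (0.0513) or R4VPL3-1 replicate 3 (0.0507). For MT-ND5 the value against VHL-r was 0.18 (adjusted p = 0.072) and against DMSO 0.10 (adjusted p = 0.144). MT-ND3 differed by 0.06 from VHL-r, with a 95% interval from -0.05 to 0.17, and by 0.05 from DMSO.

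Complex III has 1 mitochondrially encoded subunit, cytochrome b, and its gene MT-CYB (ENSG00000198727, chrM:14747-15887, plus strand) had the lowest adjusted p of the mRNAs against DMSO. Its normalized counts were 45478, 44538 and 47126 in DMSO, 44672, 48193 and 43761 in VHL-r, and 54165, 50772 and 54369 in R4VPL3-1. All 3 R4VPL3-1 libraries were above the other 6. The log2 fold change was 0.22 against VHL-r (SE 0.0452, 95% interval 0.13 to 0.32, limma adjusted p = 0.00709) and 0.22 against DMSO (adjusted p = 0.00114). Without VHL-r replicate 3 the first of these had an adjusted p of 0.051. VHL-r and DMSO differed by -0.01, with an interval from -0.10 to 0.09.

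The ATP synthase genes MT-ATP8 and MT-ATP6 overlap and share an mRNA (chrM:8366-8572 and chrM:8527-9207, plus strand), and both encode subunits of its membrane part. MT-ATP8 had 6683, 7543 and 7590.2 normalized counts in DMSO, 7408, 7514 and 6933 in VHL-r, and 8483, 8140.3 and 8501 in R4VPL3-1. Again the R4VPL3-1 libraries were above all others. It rose by 0.20 on the log2 scale against VHL-r (SE 0.0499, limma adjusted p = 0.0379) and by 0.21 against DMSO (adjusted p = 0.00399). The call against VHL-r is fragile. It was lost when any 1 of the 6 libraries of that comparison was left out, namely VHL-r replicate 1 (adjusted p = 0.0591), 2 (0.079) or 3 (0.191), or R4VPL3-1 replicate 1 (0.161), 2 (0.063) or 3 (0.0844).

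MT-ATP6 ranged from 50068 to 56384 normalized counts in the DMSO and VHL-r libraries and from 56800 to 61278 in R4VPL3-1. It rose by 0.17 against DMSO (limma adjusted p = 0.0102), and against VHL-r the value was also 0.17, with an adjusted p of 0.0828. Since the genes overlap, only 63 of the 306 start positions of reads touching MT-ATP8 could be counted for it, and MT-ATP8 reads therefore come from its first part. Per 100 start positions that are countable and not repeated in the nuclear genome, MT-ATP8 stood at 12100 normalized counts over all libraries and MT-ATP6 at 11600. The ratio of their counts was 0.130 to 0.143, and its groups overlapped.

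For complex IV, cytochrome c oxidase, only MT-CO1 against DMSO was called. The log2 values of its 3 mRNAs after R4VPL3-1 differed in sign, and whether the 3 differ from each other was not tested. Their sum did not separate the groups: 239310.0 to 247940.0 in DMSO, 226520.0 to 249770.0 in VHL-r and 225690.0 to 248830.0 in R4VPL3-1. MT-CO1 (ENSG00000198804, chrM:5904-7445, plus strand), which encodes the catalytic subunit, is the gene with the most reads here. It had 125782, 127241 and 129841 normalized counts in DMSO, 128669.8, 132487 and 120026 in VHL-r, and 108993, 110059.7 and 122646 in R4VPL3-1. R4VPL3-1 was below DMSO in every library, and R4VPL3-1 replicate 3 lay above VHL-r replicate 3.

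MT-CO1 fell by 0.17 on the log2 scale against DMSO (SE 0.0498, limma adjusted p = 0.0176). That call was lost without DMSO replicate 2 (0.057), DMSO replicate 3 (0.0538), R4VPL3-1 replicate 1 (0.0924) or R4VPL3-1 replicate 2 (0.0898). Against VHL-r the value was -0.16 with an adjusted p of 0.148, and without R4VPL3-1 replicate 3 it was -0.21 with an adjusted p of 0.0166. MT-CO2 differed by 0.17 from VHL-r (adjusted p = 0.0822) and by 0.09 from DMSO (adjusted p = 0.198). MT-CO3 differed by 0.07 from both, with a 95% interval against VHL-r from -0.03 to 0.17.

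The shift in MT-CO1 was plainer relative to the other mitochondrial mRNAs of the same library, where differences in total mitochondrial RNA cancel. MT-CO1 took 22.02, 21.93 and 21.78% of the reads on the 13 mRNA genes in DMSO (21.9 ± 0.124, SD, n = 3). It took 22.3, 21.8 and 22.13% in VHL-r (22.1 ± 0.25) and 17.53, 18.65 and 18.96% in R4VPL3-1 (18.4 ± 0.754). The 6 DMSO and VHL-r libraries lay within 1 percentage point of each other, and the 3 R4VPL3-1 libraries were all below them. The ratio of MT-CO1 to MT-CO2 was 2.42 to 2.51 in DMSO, 2.54 to 2.65 in VHL-r and 1.99 to 2.10 in R4VPL3-1. These ratios were chosen after the values of the genes had been seen and are given without a test. Such a share does not depend on how libraries were scaled, and it cannot say which of its parts moved.

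**Figure D2:**
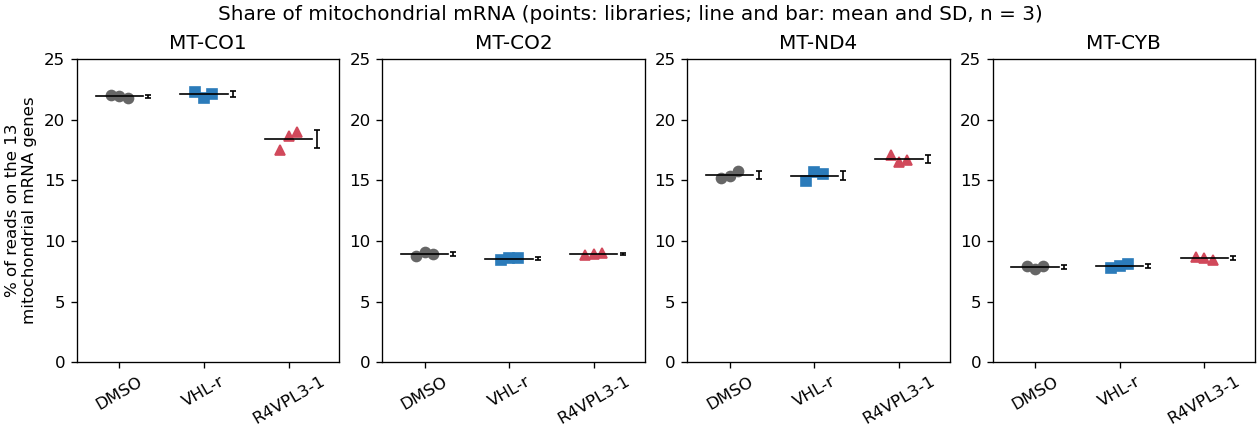
Share of the reads on the 13 mitochondrial mRNA genes that fell on MT-CO1, MT-CO2, MT-ND4 and MT-CYB, in percent, with 1 point per library and the mean and SD of 3 libraries per group. MT-CO1 took 21.8 to 22.3% in the DMSO and VHL-r libraries and 17.5 to 19.0% in the R4VPL3-1 libraries, while the shares of MT-ND4 and MT-CYB were higher in R4VPL3-1 and that of MT-CO2 overlapped DMSO.

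Of the start positions countable for MT-CO1, 33.3% gave 100-base reads that also occur letter for letter in the nuclear genome, the highest share of any mRNA. The figure was 26.1% for MT-ND2, 10.9% for MT-ND1 and 0 for MT-CYB, MT-ND4, MT-ND4L and MT-ATP8. In the whole mitochondrial sequence 1535 of 16470 such windows (9.3%) were shared, 1354 of them with chromosome 1. That chromosome carries a block of mitochondrial pseudogenes, some of which also received reads. Of 402 rows of nuclear pseudogenes of mitochondrial genes, 3 had a mean of at least 10.

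MTATP6P1 (chr1:633696-634376) had group means of 9949 normalized counts in DMSO, 9939 in VHL-r and 11140.0 in R4VPL3-1, a log2 fold change of 0.16 against DMSO (limma adjusted p = 0.0202) and 0.17 against VHL-r (0.127). MTND2P28 (chr1:629640-630683) had 2045, 2011 and 2262 in the same order (adjusted p against DMSO 0.0993). MTCO1P12 (chr1:631074-632616) had 96.4, 93.2 and 83.0, and its groups overlapped. Reads of these copies and of their mitochondrial counterparts cannot be told apart where the sequences are the same. The rows of MT-ATP6, MT-ND2 and MT-CO1 carry that uncertainty, as do other rows with shared windows, such as MT-RNR1. MT-CYB, MT-ND4, MT-ND4L and MT-ATP8 shared no countable 100-base window.

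The rRNAs of the mitochondrial ribosome were not called in any comparison. MT-RNR2, the rRNA of the large subunit, had 52665, 60621 and 54899 normalized counts in DMSO, 67406, 65088 and 54827 in VHL-r, and 58502, 59768 and 72149 in R4VPL3-1. Its groups overlapped, and its log2 fold change against DMSO was 0.18 for R4VPL3-1 (limma adjusted p = 0.0993) and 0.15 for VHL-r (adjusted p = 0.18). Without VHL-r replicate 3 the value for VHL-r against DMSO was 0.24 with an adjusted p of 0.0231, and without R4VPL3-1 replicate 1 that for R4VPL3-1 was 0.23 with 0.0446.

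MT-RNR1, the rRNA of the small subunit, had 12138, 14279.6 and 11811 normalized counts in DMSO, 15183, 14585 and 11202 in VHL-r, and 9699.7, 11853 and 14072 in R4VPL3-1. It differed by -0.21 between R4VPL3-1 and VHL-r (95% interval -0.43 to 0.02, limma adjusted p = 0.578). The spread between repeats was thus wider for the rRNAs than for most mRNAs. The ratio of MT-RNR1 to MT-RNR2 was 0.230, 0.236 and 0.215 in DMSO, 0.225, 0.224 and 0.204 in VHL-r, and 0.166, 0.198 and 0.195 in R4VPL3-1. All R4VPL3-1 libraries were below the others in this ratio, which was likewise chosen after values were seen and is given without a test. Of the start positions countable for MT-RNR1, 21.2% gave reads that also occur in the nuclear genome, beside 0 for MT-RNR2.

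Of the 22 tRNA genes, 6 reached a mean of 10 normalized counts and were tested, 7 were above 0 with means between 0.113 and 8.15, and 9 were at 0. Their summed count was 143 to 251 per library and its groups overlapped. MT-TT (ENSG00000210195, chrM:15888-15953, plus strand) was the only one called. It had 20.9, 12.8 and 26.4 normalized counts in DMSO, 27.0, 25.2 and 14.3 in VHL-r, and 7.47, 7.96 and 7.49 in R4VPL3-1, from 8, 8 and 7 reads in the last group. Every R4VPL3-1 library was below every other.

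The log2 fold change of MT-TT was -1.38 against VHL-r (SE 0.339, 95% interval -2.08 to -0.67, limma adjusted p = 0.0363) and -1.23 against DMSO (adjusted p = 0.0103). With so few reads the first call is fragile. It was lost without VHL-r replicate 1 (0.167) or 2 (0.199) and without R4VPL3-1 replicate 1 (0.112), 2 (0.0871) or 3 (0.0665), and the second was lost without DMSO replicate 3 (0.0625). Its upstream neighbour MT-CYB was higher in the same libraries. Per 1000 MT-CYB counts there were 0.459, 0.287 and 0.56 MT-TT counts in DMSO, 0.605, 0.523 and 0.328 in VHL-r, and 0.138, 0.157 and 0.138 in R4VPL3-1. This ratio was chosen after the values had been seen and is given without a test. With MT-TT called lower and MT-CYB called higher, it adds no support of its own to the MT-TT call.

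**Figure D3:**
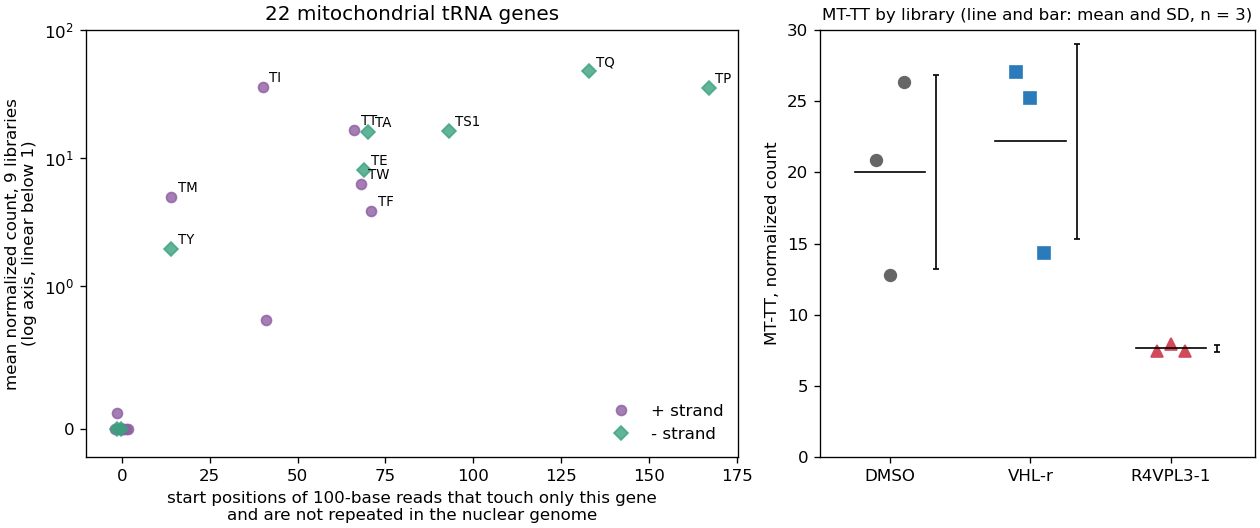
Left, the 22 mitochondrial tRNA genes by the number of start positions from which a 100-base read touches only that gene and does not recur in the nuclear genome, against the mean normalized count over 9 libraries, by strand. Right, MT-TT in each library with the mean and SD of 3 libraries per group: R4VPL3-1 lay between 7.47 and 7.96 and the other 6 libraries between 12.8 and 27.0.

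The other tested tRNA rows were MT-TI (isoleucine), MT-TQ (glutamine), MT-TA (alanine), MT-TS1 (serine, UCN codons) and MT-TP (proline). MT-TA had 17.3, 21.6 and 21.3 normalized counts in DMSO, 14.0, 21.0 and 10.2 in VHL-r, and 12.1, 12.9 and 12.9 in R4VPL3-1. R4VPL3-1 was below DMSO in every library and overlapped VHL-r, and the log2 value of -0.62 against DMSO did not pass (limma adjusted p = 0.162). MT-TS1 had group means of 11.5 ± 5.9 in DMSO, 17.1 ± 3.85 in VHL-r and 20.7 ± 4.41 in R4VPL3-1 (SD, n = 3 each). Its value of 0.91 against DMSO (adjusted p = 0.0807) was called only without DMSO replicate 1 (1.22, adjusted p = 0.0328). MT-TQ, MT-TI and MT-TP had values from -0.49 to 0.31 over the 3 comparisons, and their groups overlapped.

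The minus strand carries 1 mRNA, MT-ND6 of complex I, and 8 of the tRNAs. MT-ND6 (chrM:14149-14673) had 5029.8, 4724 and 4028 normalized counts in DMSO, 4296, 4656 and 3087 in VHL-r, and 3576, 3912 and 4203 in R4VPL3-1, with overlapping groups. Its log2 value for R4VPL3-1 against DMSO was -0.23 (95% interval -0.45 to -0.02, limma adjusted p = 0.113), the only negative one among the complex I mRNAs, and that for VHL-r was -0.21 (adjusted p = 0.183). R4VPL3-1 and VHL-r differed by -0.02. Without VHL-r replicate 3 its value for R4VPL3-1 against DMSO had an adjusted p of 0.0159, and without DMSO replicate 3 one of 0.0371. With the replicate number as a block it was called lower (adjusted p = 0.0428). Without VHL-r replicate 2 VHL-r differed from DMSO by -0.33 (0.0432). Selection by poly(A) can under-represent this mRNA, which limits its level here. Whether MT-ND6 differs in its response from the plus-strand mRNAs was not tested.

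**Figure D4:**
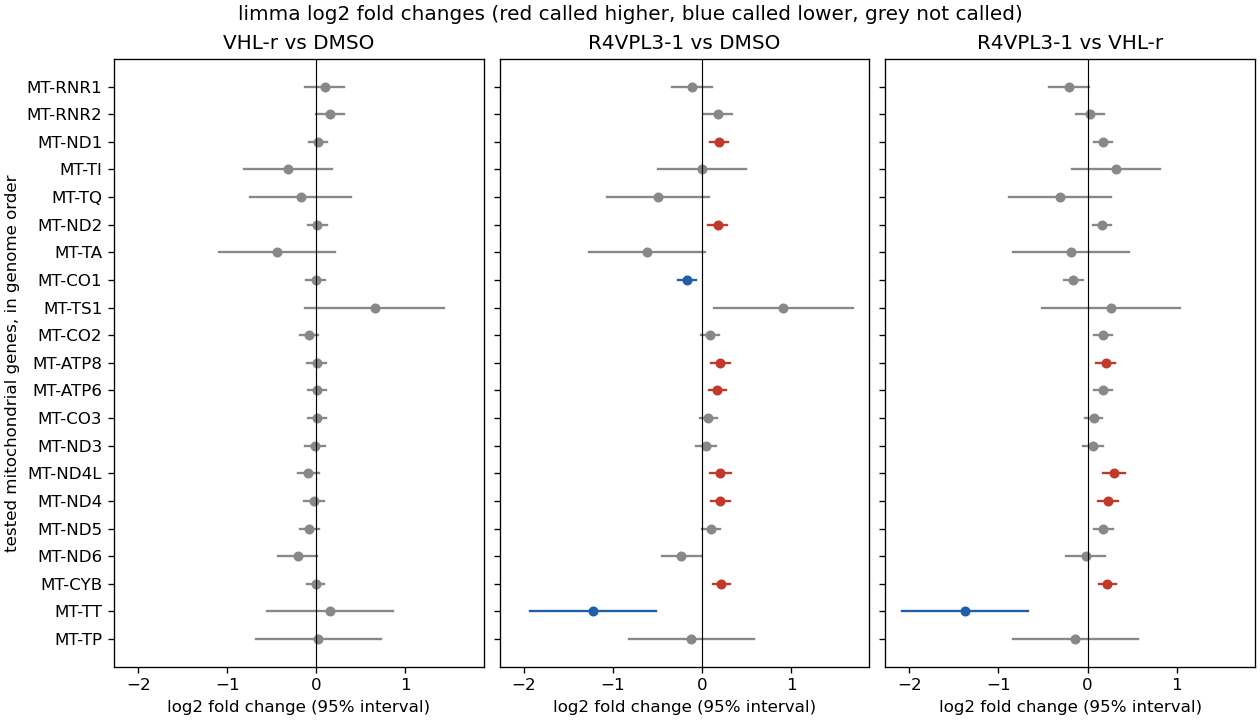
Log2 fold change with its 95% interval (limma) for the 21 tested MT- rows in genome order, in the 3 comparisons on 1 scale, with rows called higher in red, called lower in blue and not called in grey. The VHL-r against DMSO panel holds no called row, and the intervals of the 6 tRNA rows are several times as wide as those of most mRNAs.

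Summed by class, the picture depended on MT-CO1. The 13 mRNA genes together held 571170.0 to 596280.0 normalized counts in DMSO, 542360.0 to 607630.0 in VHL-r and 590210.0 to 646790.0 in R4VPL3-1. These groups overlapped (log2 ratio of means 0.11 against VHL-r and 0.09 against DMSO). Without MT-CO1 the R4VPL3-1 libraries, at 480150.0 to 524140.0, were above the 422340.0 to 475140.0 of the other 6, with log2 ratios of 0.17 and 0.15. MT-CO1 was left out after its lower values had been seen, so the sum without it is given as description only. As a share of all reads in the library the R4VPL3-1 values still lay above DMSO but overlapped VHL-r. In normalized counts the sums over complex I, with 7 genes, and complex V, with 2, were above both other groups in every R4VPL3-1 library. The log2 ratios against VHL-r were 0.19 and 0.17, and MT-CYB was likewise above both groups. As shares of the library, complex V and MT-CYB still were, whereas complex I overlapped VHL-r. Within the R4VPL3-1 group replicate 3 had the highest total of MT- rows (733210.0), and VHL-r replicate 3 had the lowest of all (608560.0).

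The mRNAs also differed in level. Per 100 start positions that are countable and unique, MT-CO1, MT-ATP8 and MT-ATP6 had the highest group means, at 11850.0, 11540.0 and 11120.0 normalized counts in DMSO, 11800.0, 11560.0 and 11160.0 in VHL-r, and 10580.0, 13290.0 and 12540.0 in R4VPL3-1. By these means MT-CO1 was the highest of the 3 in DMSO and VHL-r and the lowest of them in R4VPL3-1. The 3 lay close together in DMSO and VHL-r. MT-ATP8 alone varied between DMSO libraries, at 7272 ± 511 normalized counts (SD, n = 3), and the ranking was not tested. Over all libraries the mean was lowest for MT-ND6 (794), followed by MT-ND5 (2130.0). On the same scale MT-RNR1 stood at 1890.0 and MT-RNR2 at 4150.0.

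Nuclear genes that act on these RNAs were looked at in lists. Of 27 listed genes for mitochondrial RNA processing, polyadenylation and decay, 24 were tested. None was called higher and 2 were called lower in R4VPL3-1 against VHL-r, where 1.14% and 0.729% of all tested genes were, and the list median was -0.02. TRMT10C encodes the methyltransferase subunit of mitochondrial RNase P, which cuts at the 5′ side of tRNAs. It had 3241, 3408 and 3271 normalized counts in DMSO, 3190.3, 3031 and 2974 in VHL-r, and 2403, 2366 and 2656 in R4VPL3-1. R4VPL3-1 was below both other groups in every library, and TRMT10C fell, with a log2 fold change of -0.31 against VHL-r (SE 0.0513, limma adjusted p = 0.000915) and -0.42 against DMSO (adjusted p = 2.63e-06).

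PDE12, which removes poly(A) from mitochondrial RNAs, had 2377, 2339.6 and 2361 normalized counts in DMSO, 2254, 2341 and 2221 in VHL-r, and 1956, 1956 and 1973 in R4VPL3-1. The R4VPL3-1 values were close together and below all others. PDE12 fell, with a log2 fold change of -0.21 against VHL-r (limma adjusted p = 0.0137) and -0.27 against DMSO (0.000172). For VHL-r against DMSO the values were -0.11 for TRMT10C and -0.05 for PDE12, and neither passed. Whether TRMT10C or PDE12 has a part in the mitochondrial values was not tested.

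Against DMSO, 0 genes of this list were called higher and 4 lower after R4VPL3-1, and 0 and 2 of the 24 after VHL-r. Of all tested genes 11.8% were called lower after R4VPL3-1 and 9.51% after VHL-r, so these counts of lower genes are near the background. The 2 called lower after both were FASTKD3, an RNA-binding protein of the mitochondrial matrix (-0.53 and -0.41), and MTPAP, the poly(A) polymerase (-0.27 and -0.21). Neither passed between R4VPL3-1 and VHL-r, where FASTKD3 had a value of -0.12 and MTPAP of -0.05.

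The machinery of mitochondrial transcription and replication (15 of 16 tested) had 0 calls between R4VPL3-1 and VHL-r. After R4VPL3-1, 3 were called higher and 5 lower against DMSO, and after VHL-r 3 and 4. Beside them stand 13.1% of all tested genes higher and 11.8% lower after R4VPL3-1, and 10.3% and 9.51% after VHL-r, and with 15 genes nothing is read from the difference. MTERF1, which binds the end of the rRNA region, fell, with log2 fold changes of -0.71 after R4VPL3-1 and -0.60 after VHL-r, as did the helicase gene TWNK (-0.31 and -0.16). POLG, the mitochondrial DNA polymerase, rose by 0.44 and 0.35, and the transcript of MTERF3, a related factor, by 0.24 and 0.26. The medians of the list were -0.09 and -0.02 against DMSO.

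Enzymes that modify mitochondrial tRNAs and rRNAs (23 of 25 tested) also had no call between R4VPL3-1 and VHL-r, and 1 higher and 2 lower for R4VPL3-1 against DMSO. For VHL-r against DMSO 0 were called higher and 3 lower, and both sets of counts are near or below the 9.51 to 13.1% of all tested genes called in 1 direction. DDX28, a helicase of the mitochondrial ribosome's large subunit, fell after R4VPL3-1 (-0.49) and after VHL-r (-0.53), as did TRMT5, a tRNA methyltransferase (-0.29 and -0.26). The rRNA methyltransferase gene TFB1M fell by 0.38 after VHL-r and had a value of -0.15 after R4VPL3-1. The rRNA methyltransferase gene NSUN4 rose by 0.16 after R4VPL3-1 against DMSO (limma adjusted p = 0.0465).

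Among 10 regulators of mitochondrial biogenesis none was called between R4VPL3-1 and VHL-r. Against DMSO 3 were called higher and 3 lower after R4VPL3-1, and 2 and 3 after VHL-r, beside 13.1% and 11.8% of all tested genes after R4VPL3-1 and 10.3% and 9.51% after VHL-r. A list of 10 is too short to read against these shares. MYC fell, with log2 fold changes of -1.77 after R4VPL3-1 and -1.54 after VHL-r, and the transcription factor gene NRF1 rose by 0.35 and 0.31. The coactivator gene PPRC1 fell in both (-0.18 and -0.17). PPARGC1A, the gene of the coactivator PGC-1α, fell by 1.08 after VHL-r from a low level (31.3 ± 1.26 in DMSO, SD, n = 3), and its value of -0.69 after R4VPL3-1 did not pass (limma adjusted p = 0.0773).

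The nuclear-encoded subunits of the same complexes formed the longest list. Of 75 listed subunits of complexes I, III, IV and V, 63 were tested and none was called between R4VPL3-1 and VHL-r, where so few genes were called at all (1.14% higher and 0.729% lower) that nothing is read from it. Only NDUFV3, an accessory subunit of complex I, was called against DMSO, higher by 0.18 after either compound (limma adjusted p = 0.0321 for R4VPL3-1), beside 13.1% of all tested genes called higher after R4VPL3-1 and 10.3% after VHL-r. The medians were -0.01 for R4VPL3-1 against VHL-r, -0.04 against DMSO, and -0.02 for VHL-r against DMSO. The mitochondrial and the nuclear subunits were not tested against each other.

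Since the libraries were poly(A)-selected, 18 nuclear RNAs known to lack a poly(A) tail were summed as a measure of how much unselected RNA remained. They held 97.2, 179 and 95.3 normalized counts in DMSO, 208, 193 and 121 in VHL-r, and 110, 128 and 204 in R4VPL3-1, with overlapping groups. In each group the library with the highest sum was also the highest for MT-RNR1 and MT-RNR2. The part of such remaining RNA in the rRNA values was not tested. The length of poly(A) tails was not measured, so the part of tail length in the mitochondrial values was not tested.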

How the data were processed

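RNA-seq was analysed in 9 libraries of A375R cells. Per the methods, poly(A)-selected, strand-specific libraries were read as 100-base single reads, aligned by STAR to GRCh38, and assigned to genes by htseq-count (reverse strand). The authors deposited a normalized signal, the reads per gene divided by a DESeq2 (version 1.36.0 per the labels) size factor and rounded to 2 decimals. A read that matches a nuclear copy as well can be lost, or assigned to that copy. Whole reads were recovered from what 1 read is worth in each library: at a tolerance of 0.1 read, 100.0% of values came out whole (rounded), giving 26435568 to 32085626 reads. Counting error at this depth is small except for the tRNA rows.

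The main test was limma (version 3.58.1, R 4.3.3, trend) on log2(value + 1) over 15230 genes whose mean reached 10, in 1 fit of all 9 libraries with treatment as the factor and Benjamini-Hochberg adjustment; fold changes are on that scale, which understates those of low rows. The fit was tested on simulated data. The alternatives were pseudocounts of 0.1 and 5, no filter, a mean of at least 50, TMM scaling, scaling to the nuclear total, a replicate block, robust limma, tests of the recovered reads by DESeq2 (1.42.0) and edgeR (4.0.16), and leaving out each library. On those reads edgeR called 297 genes between R4VPL3-1 and VHL-r and DESeq2 316, beside 285 by limma, of which 276 and 269 were shared in the same direction.

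Every MT- row with a mean of at least 10 is named. Of each nuclear list, up to 3 members with the lowest adjusted p in a comparison are named, and up to 5 pseudogenes with the highest mean. MT- genes and lists were chosen with earlier results of these data known. Sequences and coordinates are from hg38, whose annotation (GENCODE) matched the deposited positions.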

Additional observations from a re-analysis of the deposited data

How the results depend on the processing

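With the robust option of limma or with DESeq2, 8 rows were called higher between R4VPL3-1 and VHL-r in place of 4: MT-ND1, MT-CO2, MT-ATP6 and MT-ND5 were added, with adjusted p between 0.0233 and 0.045. The number called lower in that comparison was 0 in place of 1 with no filter on low values, with a mean of at least 50, which leaves MT-TT out, and with DESeq2, which gave MT-TT no adjusted p there. Against DMSO it was 1 in place of 2 with a mean of at least 50. MT-ATP8 against VHL-r was not called with no filter (adjusted p = 0.0715) or when scaled to the nuclear total (0.0742), and MT-TT was not with no filter (0.136). The cause was not tested. Summed levels of the mRNAs, rRNAs and tRNAs moved by less than the spread between replicates under both other scalings and with each library left out.

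With all 9 libraries, signs turned for 6 values, all near 0. MT-TI in R4VPL3-1 against DMSO was 0.0051 with TMM scaling, 0.0081 scaled to the nuclear total and 0.0022 with edgeR. With the nuclear total, VHL-r against DMSO was 0.0086 for MT-CO1, 0.0038 for MT-ND3 and 0.0098 for MT-CYB. Leaving out 1 library gave 1 to 4 rows called higher and 0 to 1 called lower for R4VPL3-1 against VHL-r, 5 to 8 and 1 to 3 against DMSO, and 0 to 1 and 0 to 1 for VHL-r against DMSO. The count called higher against VHL-r was 2 without VHL-r replicate 1, R4VPL3-1 replicate 1 or R4VPL3-1 replicate 3, and 1 without VHL-r replicate 3. Of 567 values of single rows in such fits, 44 changed sign, 24 calls were lost and 10 gained.

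The rows whose log2 value changed sign on leaving out 1 library were uncalled in the full fit. For R4VPL3-1 against VHL-r the values ran from -0.0728 to 0.081 for MT-RNR2, -0.565 to 0.0362 for MT-TQ, -0.415 to 0.0701 for MT-TA, -0.202 to 0.0946 for MT-ND6 and -0.597 to 0.153 for MT-TP. For R4VPL3-1 against DMSO they ran from -0.244 to 0.0245 for MT-RNR1, -0.0876 to 0.112 for MT-TI and -0.576 to 0.175 for MT-TP. For VHL-r against DMSO the ranges were -0.0407 to 0.0709 for MT-ND1, -0.525 to 0.0754 for MT-TQ, -0.0373 to 0.0668 for MT-ND2, -0.0382 to 0.033 for MT-CO1, -0.0556 to 0.0394 for MT-ATP8, -0.0401 to 0.0457 for MT-ATP6, -0.0199 to 0.0486 for MT-CO3, -0.0657 to 0.045 for MT-ND3, -0.0774 to 0.0134 for MT-ND4, -0.0477 to 0.0218 for MT-CYB, -0.127 to 0.423 for MT-TT and -0.21 to 0.307 for MT-TP.

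The replicate numbers were not taken as pairs: deviations of same-numbered libraries correlated at -0.006 to 0.121, and each library correlated best with its own number only for VHL-r with DMSO, a hint from the data and not from the design. With the replicate number as a block the counts of rows called higher were 4, 7 and 0 and those called lower 1, 3 and 0, in the order above, with MT-ND6 added as lower against DMSO (adjusted p = 0.0428).

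Few reads limit the tRNA rows above 0, of which 7 fell under the filter. The 9 rows at 0 had no start position that is both countable and unique, whatever the depth.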
